A study of Mus musculus with 15 samples.

Results

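Collagen chain genes were examined in 2 brain regions, the cerebellum (Ce) and the striatum (St), in a mouse line bred for high voluntary wheel running (Hi) and in a control line (Co). They were taken by symbol, as every gene of the deposited table named Col, a number, the letter a and a number, and 43 of the 26628 genes in the table had such a name. The 4 groups were CeCo, CeHi, StCo and StHi, with 4, 4, 4 and 3 samples. All mice were males of the Hsd:ICR strain, an outbred stock, and were housed 1 to a cage with a running wheel from about 6 weeks of age until their brains were collected 7 days later, so that the control mice had wheels as well. Each line is a single population. Selection for running therefore cannot be told apart from other differences between these 2 lines. The study reports that Hi mice ran more and faster than Co mice on these wheels. Effects of the running itself cannot be told apart from inherited differences either.

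Collagens are extracellular proteins built from chains that wind around one another in triple helices, and each chain is encoded by a gene of its own. Fibrillar collagens form the fibrils of connective tissue, type IV collagens form the sheet of basement membranes, and other classes attach to fibrils, span the cell membrane or form short networks. In the brain, collagen is found mainly in the meninges, in the walls and basement membranes of vessels and in the choroid plexus, and some chains are made by neurons.

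By class, the 43 genes were 11 fibrillar, 6 type IV, 6 type VI, 3 short-chain, 1 anchoring fibril, 9 fibril-associated, 4 membrane-spanning and 2 multiplexin genes, and Col28a1 was kept as other. Of these, 40 reached a CPM (normalized counts scaled to a total of 1000000) of 1 in 3 or more samples and were tested with all other such genes, 15213 in total. Col6a6, Col10a1 and Col28a1 did not. The values are fragment counts that the authors scaled for library size, called normalized counts here, and 1 fragment was worth 0.841 to 1.30 of them. Samples held 32909267 to 47485526 fragments. Collagen genes together made up 0.0439% to 0.0759% of the total of a sample. The tissue labels were checked with neuronal markers. The summed markers of cerebellar neurons were 175799 to 217355 normalized counts in the Ce and 557 to 881 in the St, and those of striatal neurons were 8319 to 11668 in the Ce and 168672 to 233951 in the St. In RNA from whole tissue, fewer cells of a type and less RNA per cell cannot be told apart. The samples of a group are individual mice, so that P-values measure the spread between these mice, and intervals that rest on fragments cover counting error only. The labels do not say whether Ce and St samples came from the same mice, and the fit took all samples as independent.

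Levels of different genes were compared per kilobase of annotated exon. In the Ce the order was led by Col18a1 with 547 ± 67.4 normalized counts per kilobase (SD, n = 8), then Col9a3 with 450 ± 83.3 and Col9a2 with 337 ± 55.1. Col18a1 encodes the chain of a basement membrane collagen from which endostatin is cut, and the Col9 genes encode chains that sit on the surface of cartilage fibrils. The St was led by Col6a1 with 1364 ± 212 (n = 7), Col4a2 with 420 ± 56.3 and Col25a1 with 356 ± 41.8. Neighbours in these orders often overlapped within their spread, as Col18a1 and Col9a3 did in the Ce and Col4a2 and Col25a1 in the St. The lowest gene of the Ce was Col6a4 at 0.216 ± 0.137, and the lowest of the St was Col4a4 at 1.29 ± 0.723. Where the length of the longest transcript was used, the same 3 genes led each region, with Col25a1 above Col4a2 in the St.

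**Figure D1:**
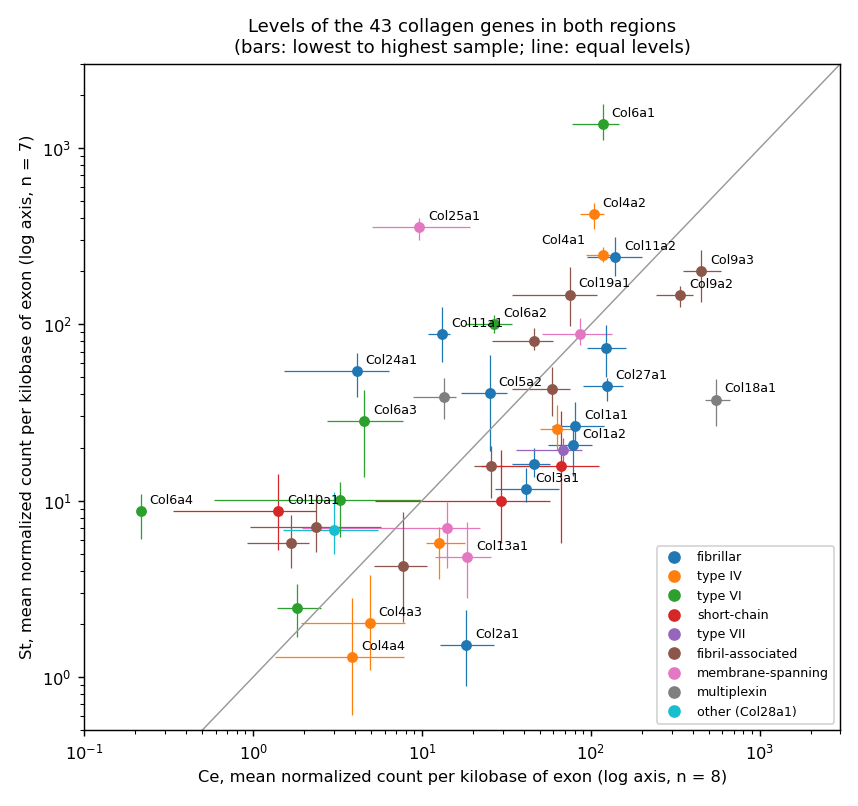
Mean level of the 43 collagen genes in the Ce (horizontal, 8 samples) and in the St (vertical, 7 samples), in normalized counts per kilobase of exon on log axes. Bars run from the lowest to the highest sample (no horizontal bar is drawn for Col6a4, which was at 0 in 1 Ce sample), colours mark classes, and points far above the diagonal, such as Col25a1 and Col6a1, had the higher level in the St, whereas Col18a1 and Col2a1 lie far below it.

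The first comparison was between regions. Of the 40 genes, 17 were higher in the St and 21 were higher in the Ce at an FDR-adjusted P-value under 0.05 (limma, Benjamini-Hochberg adjustment over 15213 genes), whereas Col8a1 and Col23a1 did not pass. Most genes of these tissues differed as well: 80.2% of all genes tested passed, 39.6% as higher in the St and 40.6% as higher in the Ce. The median size of the difference was 1.49 on the log2 scale for the collagen genes, against 0.44 over all genes tested. A difference that passed and was of more than 1 in size was found for 30 of 40 (24.1% of all genes), and one of more than 2 for 10 of 40 (10.7% of all genes). In 26 of 40, or 65%, no Ce sample overlapped a St sample, 12 with the St above and 14 with the Ce above, and this held for 55.2% of all genes. All log2 values are differences of log2(normalized count + 1), which understates the change of low genes.

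Type VI collagen forms beaded filaments around cells, from an alpha 1 and an alpha 2 chain joined by a longer chain that is the product of Col6a3, Col6a4, Col6a5 or Col6a6. Every one of the 5 type VI genes tested was higher in the St. Col6a1 read 375, 530, 645 and 623 in CeCo, 579, 339, 592 and 423 in CeHi, 5656, 6260, 7760 and 6181 in StCo, and 4833, 5301 and 5833 in StHi. The lowest St sample was thus far above the highest Ce sample, and the fitted difference was 3.55 (SE 0.14, adjusted P = 1e-11), or 11.7-fold. Its partner Col6a2, which lies 85161 bases away on chromosome 10 and on the same strand, ranged from 151 to 285 in the Ce and from 746 to 943 in the St, a difference of 1.93 (SE 0.12, adjusted P = 1.8e-10) that was smaller than that of Col6a1.

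Among the longer chains, Col6a3 read 54.1, 45.5, 92.2 and 68.6 in CeCo, 56.3, 32.7, 42.6 and 42.3 in CeHi, 175, 286, 419 and 439 in StCo, and 163, 383 and 507 in StHi. Its regions did not overlap, but the St samples spread over a wide range, and the difference was 2.58 (SE 0.26, adjusted P = 2.2e-07). Col6a4 was close to absent from the Ce, at 0.932, 0, 3.41 and 1.78 in CeCo and 2.52, 3.16, 1.85 and 1.06 in CeHi. It read 77.8, 70.2, 93.5 and 85.9 in StCo and 51.9, 76.7 and 62.9 in StHi. Every St sample was above every Ce sample. Over all samples these values come from 16 fragments in the Ce and 489 in the St, a ratio per sequenced fragment of 37.6 with a 95% interval from 22.9 to 66.3. Col6a5 was higher in the St by 1.93 (SE 0.44, adjusted P = 0.001), although CeHi replicate 0, at 93.3, overlapped the St samples. Col6a6 was under the limit for testing, at 12.7 to 23.2 in the Ce and 15.5 to 30.9 in the St.

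Type IV genes lie in head-to-head pairs and divided into 2 sets. Col4a1 and Col4a2, whose chains form the network of nearly all basement membranes, were higher in the St. Their annotated starts on chromosome 8 overlap by 22 bases on opposite strands. Col4a1 ranged from 697 to 1000 in the Ce and from 1675 to 2046 in the St (difference 1.08, SE 0.06, adjusted P = 2.9e-11). Col4a2 ranged from 572 to 788 in the Ce and from 2303 to 3243 in the St (difference 2.02, SE 0.07, adjusted P = 3.8e-14). Neither gene overlapped between regions, and Col4a2 had the smallest P-value of all collagen genes. The shift was not equal in the pair: Col4a1 was the higher of the pair per kilobase in the Ce, with means of 117 and 104 normalized counts per kilobase whose spreads overlap, and Col4a2 was the higher in the St, with means of 247 for Col4a1 and 420 for Col4a2. Vessel cells make both chains. Of 6 endothelial markers 1, Slco1c1, was higher in the St (0.94) and none in the Ce, against 39.6% and 40.6% of all genes. The others ran from -0.12 to 0.17 and did not pass. The sum of the 6 was 5699 to 6592 in the Ce and 6910 to 10798 in the St. Slco1c1 alone ranged from 1529 to 2187 in the Ce and from 2993 to 5589 in the St. Of 8 mural cell markers 5 were higher in the St and 1 in the Ce, against the same shares of all genes. Their sums were 4345 to 5400 in the Ce and 4404 to 4933 in the St. Their part in the result was not tested.

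The other 4 type IV genes, whose chains are used in more specialised basement membranes such as that of the kidney glomerulus, were higher in the Ce. Col4a5 (334 to 538 in the Ce, 130 to 233 in the St) and Col4a6 (84.1 to 143 and 28.5 to 56.4) stand back to back on the X chromosome with 1308 bases between their starts. They differed by -1.34 (SE 0.12, adjusted P = 1.1e-08) and -1.14 (SE 0.14, adjusted P = 1e-06), with no overlap between regions. Col4a3 and Col4a4, on chromosome 1, were much lower and differed by -1.17 (SE 0.30, adjusted P = 0.0017) and -1.39 (SE 0.38, adjusted P = 0.0029), with overlap. Only 71 bases separate the annotated starts of this pair, which is shown because both of its genes varied together among Ce samples, as described further on. The stretch between them (RefSeq, GRCm38.p6, chr1:82586850-82586920, plus strand) held none of the 3 motifs searched, the CCAAT box, the TATA box TATAAA and the GC box, on either strand:
Col4a4-Col4a3: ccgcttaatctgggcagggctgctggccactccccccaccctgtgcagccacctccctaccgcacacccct

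Fibrillar genes were divided, with 4 of 11 higher in the St and 7 higher in the Ce. Those higher in the Ce included the chains of types I and III, the main collagens of meninges and vessel walls. Col1a1 read 549, 490, 632 and 785 in CeCo, 388, 395, 498 and 488 in CeHi, 154, 238, 217 and 144 in StCo, and 153, 163 and 141 in StHi. Col1a2, the other chain of type I, ranged from 692 to 1263 in the Ce and from 173 to 351 in the St. The differences were -1.61 for Col1a1 (SE 0.12, adjusted P = 2.1e-09) and -1.95 for Col1a2 (SE 0.15, adjusted P = 5.6e-09), with no overlap for either gene. Col3a1 differed by -1.78 (SE 0.12, adjusted P = 2.1e-10).

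Col2a1, the main collagen of cartilage, read 189, 125, 119 and 246 in CeCo and 165, 170, 212 and 122 in CeHi, and no St sample was above 22.1. This was the second largest excess in the Ce, at -3.51 (SE 0.24, adjusted P = 3.3e-10), or 11.4-fold. Col5a1, Col5a3 and Col27a1 were higher in the Ce by smaller amounts, -0.78, -1.48 and -1.45. Markers of fibroblasts of meninges and vessels moved with these genes: all 8 of 8 were higher in the Ce, as were 40.6% of all genes. Their summed level was 5201 to 12013 normalized counts in the Ce and 1354 to 2240 in the St, with no marker under the limit of 3 fragments throughout a group. Their part in the fibrillar differences was not tested.

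The fibrillar genes that were higher in the St were Col11a1, Col11a2, Col24a1 and Col5a2. Col24a1, a fibrillar gene also known from developing bone, read 22.4, 19.6, 37.5 and 29.4 in CeCo, 43.7, 11.6, 37.1 and 48.6 in CeHi, 523, 418, 378 and 362 in StCo, and 510, 294 and 397 in StHi. It differed by 3.77 (SE 0.26, adjusted P = 1.8e-09), or 13.7-fold, with no overlap. Col11a1, a minor chain of cartilage fibrils, ranged from 138 to 187 in the Ce and from 783 to 1589 in the St, a difference of 2.72 (SE 0.11, adjusted P = 4.4e-13). Col11a2, whose chain joins that of Col11a1 in type XI collagen, differed by only 0.83 (SE 0.15, adjusted P = 0.00016), and CeHi replicates 0 and 2, at 1357 and 1376, overlapped the St.

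The largest difference of any collagen gene was that of Col25a1, a membrane-spanning chain made by neurons, whose shed part is known from amyloid plaques. It read 121, 96.3, 150 and 137 in CeCo, 88.3, 65.4, 86.1 and 250 in CeHi, 4235, 5121, 5210 and 4875 in StCo, and 3898, 4028 and 4886 in StHi. The St stood apart by 5.30 (SE 0.23, adjusted P = 9.4e-11), or 39.3-fold. The other membrane-spanning genes did not share this pattern. Col13a1, known from the neuromuscular junction, was higher in the Ce by 3.79-fold (difference -1.92, SE 0.16, adjusted P = 4e-09). Col17a1, a part of the hemidesmosomes of skin, differed by -0.82 (SE 0.32, adjusted P = 0.03). Col23a1 did not differ detectably (0.08, SE 0.18, adjusted P = 0.7).

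Multiplexin genes, whose chains bear endostatin-like ends, went in opposite directions. Col18a1 read 3310, 4091, 3568 and 3439 in CeCo, 4107, 4107, 4658 and 3421 in CeHi, 193, 305, 343 and 218 in StCo, and 187, 297 and 298 in StHi. This was the largest excess in the Ce, at -3.89 (SE 0.13, adjusted P = 9e-13), or 14.8-fold. Col15a1 was higher in the St by 1.5 (SE 0.13, adjusted P = 6e-09), from 56.3 to 101 in the Ce and from 185 to 315 in the St.

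Of the 9 fibril-associated genes, 5 were higher in the Ce and 4 were higher in the St. The 3 chains of type IX collagen were all higher in the Ce. Col9a2 ranged from 749 to 1237 in the Ce and from 387 to 510 in the St (-1.17, SE 0.09, adjusted P = 2.1e-09). Col9a3 ranged from 1354 to 2255 in the Ce and from 515 to 1019 in the St (-1.18, SE 0.18, adjusted P = 2.8e-05). Both stood apart between regions. The lower Col9a1 overlapped (-0.92, SE 0.26, adjusted P = 0.0035), and although its chain assembles with those of Col9a2 and Col9a3, its level per kilobase in the Ce was 7.72, against 337 and 450 for them. Col22a1, Col14a1, Col19a1 and Col16a1 were higher in the St, by 1.67, 1.64, 1 and 0.84. Col20a1 and Col12a1 were higher in the Ce by 0.44 and 0.71 in size. Col7a1, the anchoring fibril gene of skin, ranged from 369 to 910 in the Ce and from 166 to 233 in the St, with a difference of -1.75 (SE 0.14, adjusted P = 6.1e-09).

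**Figure D2:**
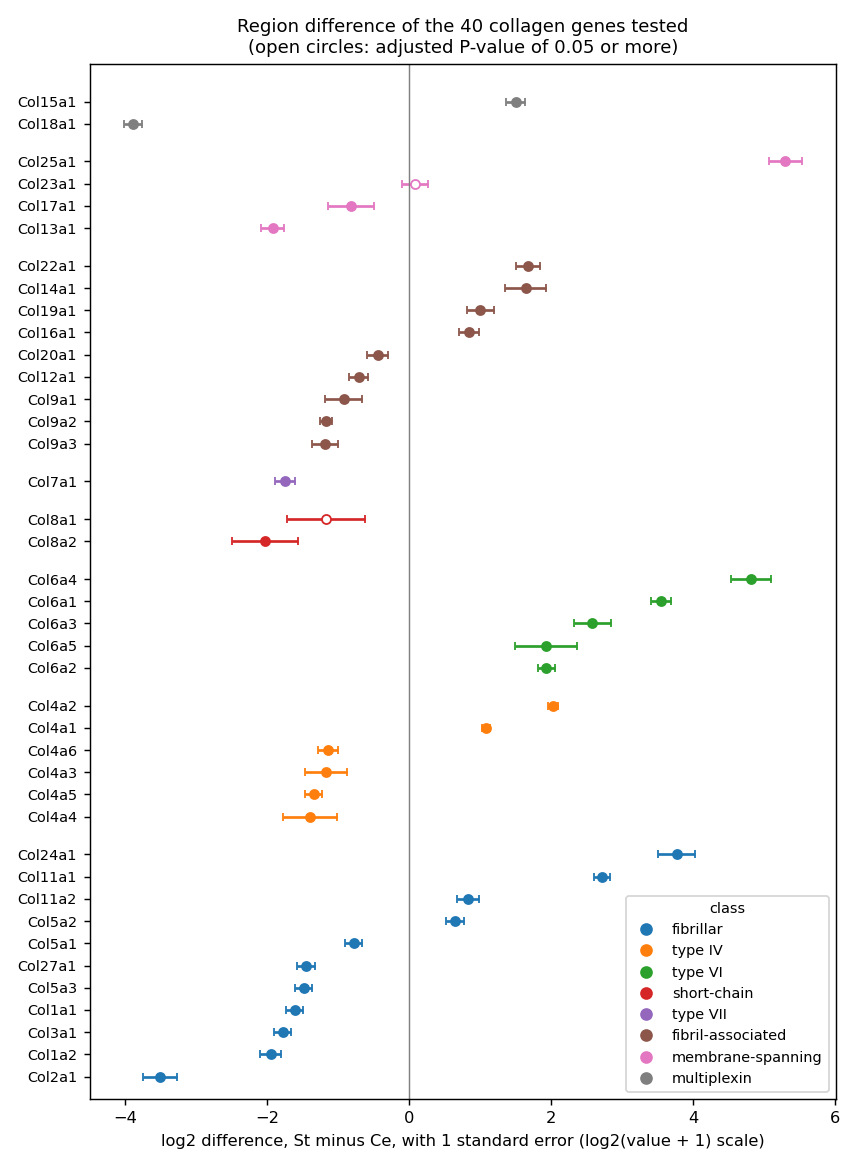
Log2 difference (St minus Ce) of each of the 40 collagen genes tested, grouped by class, with bars of 1 standard error; open circles mark Col8a1 and Col23a1, with adjusted P-values of 0.066 and 0.7. All 5 type VI genes lie to the right, the type IV genes split into Col4a1 and Col4a2 on the right and 4 on the left, and Col25a1 (5.30) and Col18a1 (-3.89) mark the ends.

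Short-chain type VIII collagen, a network former of vessel walls and of Descemet's membrane in the eye, varied more between Ce samples than between lines. Col8a1 read 310, 61.5, 451 and 165 in CeCo, 41.2, 389, 347 and 84.5 in CeHi, 69.1, 63.3, 55.7 and 44.8 in StCo, and 97.3, 62.2 and 151 in StHi. Col8a2 read 396, 99.9, 503 and 247 in CeCo, 158, 429, 421 and 142 in CeHi, 25.9, 48.5, 68.3 and 75.9 in StCo, and 31.1, 101 and 145 in StHi. In both genes CeCo replicates 0 and 2 and CeHi replicates 1 and 2 were the 4 highest Ce samples, and each line held high and low samples. The regions differed by -1.17 for Col8a1 (SE 0.55, adjusted P = 0.066) and by -2.03 for Col8a2 (SE 0.46, adjusted P = 0.0012), with overlap. Col10a1, a short-chain gene of growing cartilage and too low to be tested, read 1.05 to 7.41 in the Ce and 16.5 to 44.5 in the St.

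Markers of choroid plexus epithelium, the tissue that makes cerebrospinal fluid, moved with Col8a1 and Col8a2. The sum of 8 such markers, of which transthyretin (Ttr) is the most abundant, was 1171 normalized counts in CeHi replicate 0, 1520 in CeCo replicate 1, 12659 in CeHi replicate 3 and 36681 in CeCo replicate 3. It was 79820 in CeCo replicate 0, 89338 in CeHi replicate 2, 114658 in CeHi replicate 1 and 117727 in CeCo replicate 2. The 8 Ce samples had the same order for Col8a1 as for this sum. In the St the sum was 1432 to 3752, except in StHi replicate 2, at 18940, which was also the highest St sample of both Col8a1 and Col8a2. Each of the 8 markers was above the limit of 3 fragments in at least 1 sample of every group. Separation of the 4 Ce samples with the highest sums from the 4 with the lowest was found for 5 of the 43 collagen genes, Col8a1, Col8a2, Col4a3, Col4a4 and Col9a3, and for 212 of the 15213 genes tested, or 1.39%. Col4a3 read 54.1, 31.2, 79.4 and 41.9 in CeCo and 32.8, 66.5, 65.8 and 19.0 in CeHi. Col4a4 read 56.9, 16.9, 82.8 and 35.6 in CeCo and 14.3, 47.5, 50.9 and 21.1 in CeHi. These 2 neighbours were again lowest and highest in samples of both lines. Col18a1 showed no such split (3310 to 4658 in the 4 samples with high sums and 3421 to 4107 in the others). The part of choroid plexus in the region differences was not tested.

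**Figure D3:**
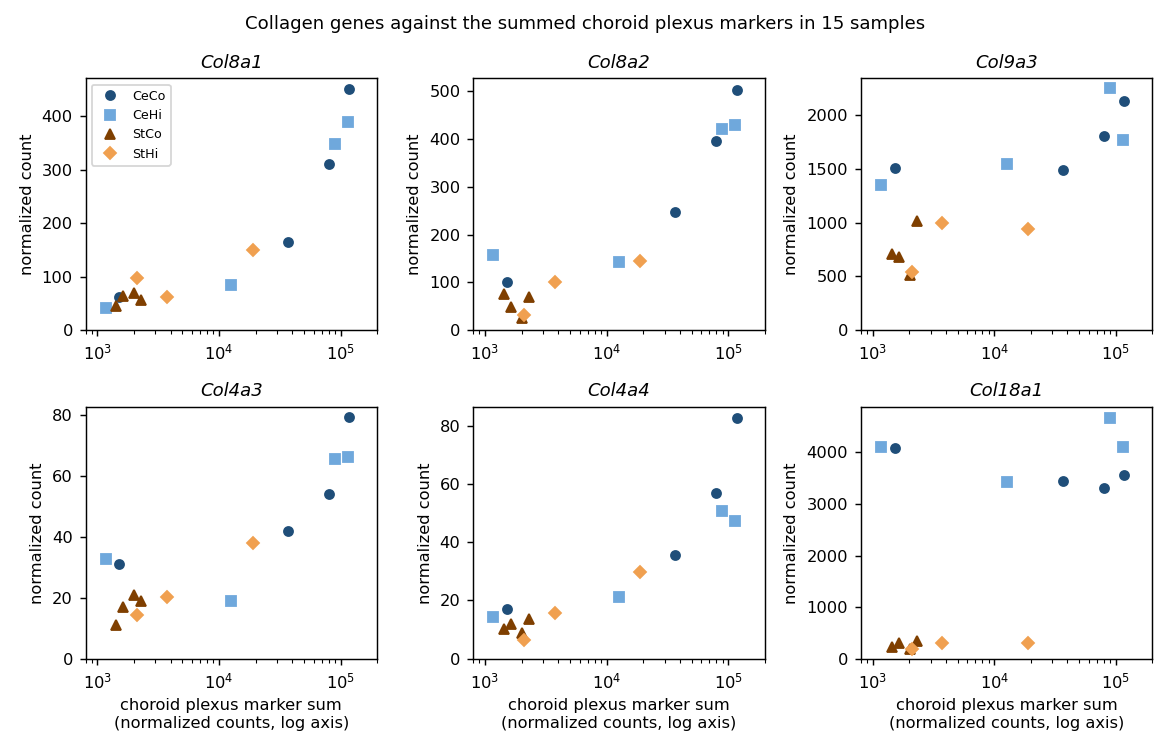
Normalized counts of Col8a1, Col8a2, Col9a3, Col4a3, Col4a4 and Col18a1 (vertical, from 0) against the sum of 8 choroid plexus markers (horizontal, log axis) in 15 samples, with a symbol for each group. The first 5 genes were highest in the 4 Ce samples with sums of 79820 to 117727, whereas Col18a1 was high in all 8 Ce samples whatever the sum.

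The stretches before the starts of Col8a1 and Col8a2 are shown because these genes, on chromosomes 16 and 4, varied together. They come from RefSeq (GRCm38.p6, chr16:57754738-57754987 on the minus strand and chr4:126286544-126286792 on the plus strand), read 5′ to 3′ towards the gene, and capitals mark the GC box GGGCGG or its complement CCGCCC. Each held it 4 times, with 1 pair overlapping in Col8a2, and neither held CCAAT or TATAAA. The GC box is frequent: 32.74% of 32851 promoters of 250 bases held it on either strand, and 22 of the 38 windows of 35 collagen genes. CCAAT was in 33.85% of all windows and in 13 of the 38, and TATAAA was in 12.37% and in 5 of the 38.
Col8a1: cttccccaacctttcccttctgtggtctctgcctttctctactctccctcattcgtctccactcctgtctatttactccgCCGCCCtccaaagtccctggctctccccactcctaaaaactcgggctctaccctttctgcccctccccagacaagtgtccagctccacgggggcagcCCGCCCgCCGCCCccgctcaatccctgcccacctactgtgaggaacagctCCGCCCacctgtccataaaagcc
Col8a2: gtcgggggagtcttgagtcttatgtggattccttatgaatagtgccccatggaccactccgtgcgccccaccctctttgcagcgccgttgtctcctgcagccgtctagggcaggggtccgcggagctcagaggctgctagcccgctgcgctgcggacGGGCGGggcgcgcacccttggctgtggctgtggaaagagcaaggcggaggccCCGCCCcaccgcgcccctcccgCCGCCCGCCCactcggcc

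The comparison between lines within a region addressed whether breeding for running was accompanied by expression differences in the Ce or in the St. Directions rest on the sample labels alone, and higher or lower in Hi means so in the samples labelled as selected. For several other genes the wording of the study runs opposite to the labels. So do the signs that it lists for Col5a2 under a control-against-selected heading. The conflict was not uniform: the study has Eomes higher in Hi across regions, as the labels do (1.04, SE 0.41, adjusted P = 0.15 with limma). A sign convention and an exchange of the line labels were not tested against each other, and an exchange would turn every line direction given. In the Ce, 2 of 40 collagen genes passed, against 5.94% of all genes tested. They were 1 higher in Hi (2.94% of all genes) and 1 lower in Hi (2.99% of all genes). Col3a1, whose chain forms type III collagen, the partner of type I in vessel walls, was lower in Hi as labelled. It read 481, 408, 573 and 639 in CeCo, 288, 267, 321 and 273 in CeHi, 101, 147, 150 and 96.0 in StCo, and 101, 110 and 96.2 in StHi. All 4 CeHi samples were below all 4 CeCo samples, and the St groups overlapped. CeCo had a mean of 525 ± 101 (SD, n = 4) and CeHi of 287 ± 24.5 (n = 4), a difference of -0.86 (SE 0.16, adjusted P = 0.0029), or 1.81-fold. In the St it was -0.25 (SE 0.17, adjusted P = 0.59), and the difference between regions in the line effect was 0.61 (SE 0.23, adjusted P = 0.37), so that it was not shown to be larger in the Ce. Averaged over regions, the line effect was -0.55 (SE 0.12, adjusted P = 0.0064).

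Col13a1 passed in the other direction, again by the labels. It read 55.9, 55.3, 61.4 and 79.3 in CeCo, 109, 112, 118 and 88.8 in CeHi, 22.2, 24.7, 34.7 and 20.1 in StCo, and 13.0, 23.3 and 16.6 in StHi. All CeHi samples were above all CeCo samples, and the difference was 0.76 (SE 0.21, adjusted P = 0.046), or 1.69-fold. This call was close to the threshold: it was lost under 4 other settings and when any 1 of 9 samples was left out, with adjusted P-values up to 0.12. In the St the value was -0.52 (SE 0.23, adjusted P = 0.31) and the interaction was -1.27 (SE 0.31, adjusted P = 0.089).

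The stretches before the starts of the genes that differed between lines in the Ce are Col3a1 at chr1:45311288-45311537 on the plus strand and Col13a1 at chr10:61979109-61979358 on the minus strand (RefSeq, GRCm38.p6), read towards the gene, with TATAAA in capitals. Each held it once and held neither CCAAT nor the GC box.
Col3a1: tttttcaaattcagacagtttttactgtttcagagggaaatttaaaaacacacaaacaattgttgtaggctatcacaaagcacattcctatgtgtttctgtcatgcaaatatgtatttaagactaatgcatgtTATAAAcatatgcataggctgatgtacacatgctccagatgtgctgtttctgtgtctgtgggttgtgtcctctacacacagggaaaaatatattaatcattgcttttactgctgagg
Col13a1: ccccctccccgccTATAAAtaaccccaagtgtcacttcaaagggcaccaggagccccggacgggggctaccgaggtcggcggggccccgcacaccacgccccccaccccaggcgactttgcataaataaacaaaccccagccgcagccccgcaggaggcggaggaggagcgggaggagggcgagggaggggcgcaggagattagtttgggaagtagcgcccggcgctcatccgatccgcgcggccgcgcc

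The fibroblast markers stood beside the Col3a1 result as follows. Their sum was 7349, 5691, 12013 and 9568 in CeCo and 5201, 6964, 7796 and 6260 in CeHi, so that the groups overlapped. All 8 markers had a negative line difference in the Ce, from -0.58 to -0.11, and none passed. With their mean log2 level as a covariate, Col3a1 differed by -0.67 (adjusted P = 0.0018). Other genes of fibroblast collagen had negative values that did not pass. Without the covariate they were -0.46 for Col1a1 (SE 0.17, adjusted P = 0.12) and -0.34 for Col1a2 (SE 0.20, adjusted P = 0.37). With it they were smaller in size, at -0.26 for Col1a1 (adjusted P = 0.18) and -0.15 for Col1a2 (adjusted P = 0.64 with limma). Over the 40 genes, without the covariate, 30 had a negative line difference in the Ce, against 50.6% of all genes tested, and the median was -0.18, against 0 over all genes tested. Collagen genes share samples and cell sources, so that this count is a description.

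Mural cells of the vessel wall also make type III collagen. The sum of their 8 markers was 4979, 5369, 5400 and 5394 in CeCo and 4806, 4345, 4930 and 4971 in CeHi. The groups did not overlap, but the nearest samples, at 4971 and 4979, were almost equal. Vtn, the most abundant marker, ranged from 2582 to 2959 in CeCo and from 2199 to 2820 in CeHi. Taken singly, 1 of the 8 markers did not overlap, as lower in Hi, against 6.44% of all genes. Of the 8, 6 had a negative line difference in the Ce, over a range from -0.52 to 0.25, and none passed. The lowest were Acta2 (-0.52, SE 0.17, adjusted P = 0.09), Myh11 (-0.52, SE 0.20, adjusted P = 0.15) and Pdgfrb (-0.32, SE 0.10, adjusted P = 0.065). The part of these cells in the Col3a1 result was not tested.

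Without overlap between CeCo and CeHi were 4 of 40, Col13a1 as higher and Col3a1, Col4a2 and Col17a1 as lower in Hi, against 13.3% of all genes (6.88% as higher and 6.44% as lower). Col4a2 read 788, 729, 770 and 754 in CeCo and 600, 662, 609 and 572 in CeHi, and the difference of -0.32 (SE 0.10, adjusted P = 0.057) missed the threshold. Its partner Col4a1 differed by -0.22 (SE 0.08, adjusted P = 0.14). Col17a1 read 91.3, 132, 132 and 89.9 in CeCo and 11.8, 86.5, 48.2 and 79.3 in CeHi, a difference of -1.27 (SE 0.44, adjusted P = 0.11) with a wide spread in CeHi.

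In the St, 1 of 40 passed, as higher in the samples labelled Hi, against 2.66% of all genes tested in either direction and 1.49% as higher. That gene was Col5a2, whose chain joins that of Col5a1 in type V collagen, which sets the diameter of type I fibrils. It read 184, 288, 296 and 186 in StCo and 531, 605 and 644 in StHi. The lowest StHi sample was well above the highest StCo sample. StHi had a mean of 593 ± 57.5 (SD, n = 3) and StCo of 239 ± 61.7 (n = 4), and the difference was 1.34 (SE 0.19, adjusted P = 0.00046), or 2.53-fold. In the Ce it read 244, 234, 306 and 262 in CeCo and 243, 205, 267 and 164 in CeHi, which overlapped (-0.27, SE 0.17, adjusted P = 0.42). StHi was thus above the other 3 groups, which lay between 164 and 306.

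The line effect on Col5a2 differed between regions by 1.61 (SE 0.26, adjusted P = 0.0072), and it was the only 1 of the 40 collagen genes with an interaction that passed, against 0.532% of all genes tested. At an unadjusted P under 0.05 there were 5 of 40, against 9.56% of all genes. The study lists Col5a2 among its interaction genes as well. Its heading reads control against selected, with the signs found here for Hi minus Co. With same-numbered samples of a line as a replicate block, 2 interactions passed, Col5a1 and Col5a2. Averaged over regions, Col5a2 and Col3a1 were the 2 of 40 genes that passed, against 8.48% of all genes tested, with 0.53 (SE 0.13, adjusted P = 0.016) for Col5a2. The region difference of Col5a2, 0.65 (SE 0.13, adjusted P = 0.00019), came with overlap between StCo and the Ce samples, and StHi alone lay above all Ce samples. The genes with which type V chains assemble had other values. Col5a1 differed between lines in the St by -0.40 (SE 0.17, adjusted P = 0.31), Col5a3 by 0.21 (SE 0.17, adjusted P = 0.66) and Col1a1 by -0.28 (SE 0.18, adjusted P = 0.56).

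Col3a1 and Col5a2, the collagen genes with the clearest line effects, are neighbours on chromosome 1 (GRCm38). Col3a1 lies at chr1:45311538-45349706 on the plus strand and Col5a2 at chr1:45374321-45503282 on the minus strand, end to end with 24614 bases between them. By the labels, Col3a1 passed as lower in Hi in the Ce, and Col5a2 passed as higher in Hi in the St. Only for Col5a2 did the interaction pass. The St value of Col3a1 was negative as well (-0.25, SE 0.17), and its interaction stayed above the threshold (0.61, SE 0.23, adjusted P = 0.37 with limma). The line effect of Col3a1 therefore cannot be assigned to the Ce alone. In the annotation, exons of Col3a1 overlap those of the predicted gene Gm47302, none overlap those of Col5a2, and whether the counting used strand is not given in the sources used here. Among 6 genes tested within 1 Mb of Col5a2, these 2 included, 1 passed per line comparison, Col3a1 for the Ce and Col5a2 for the St. Over all genes tested, the shares were 5.94% and 2.66%. The window was centred on a gene that passed and holds Col3a1, so both counts were at least 1 by choice. They cannot show whether line effects cluster there. The other genes tested in it, Gulp1, Wdr75, Gm5526 and Slc40a1, passed in neither comparison (adjusted P of 0.27 or more with limma).

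**Figure D4:**
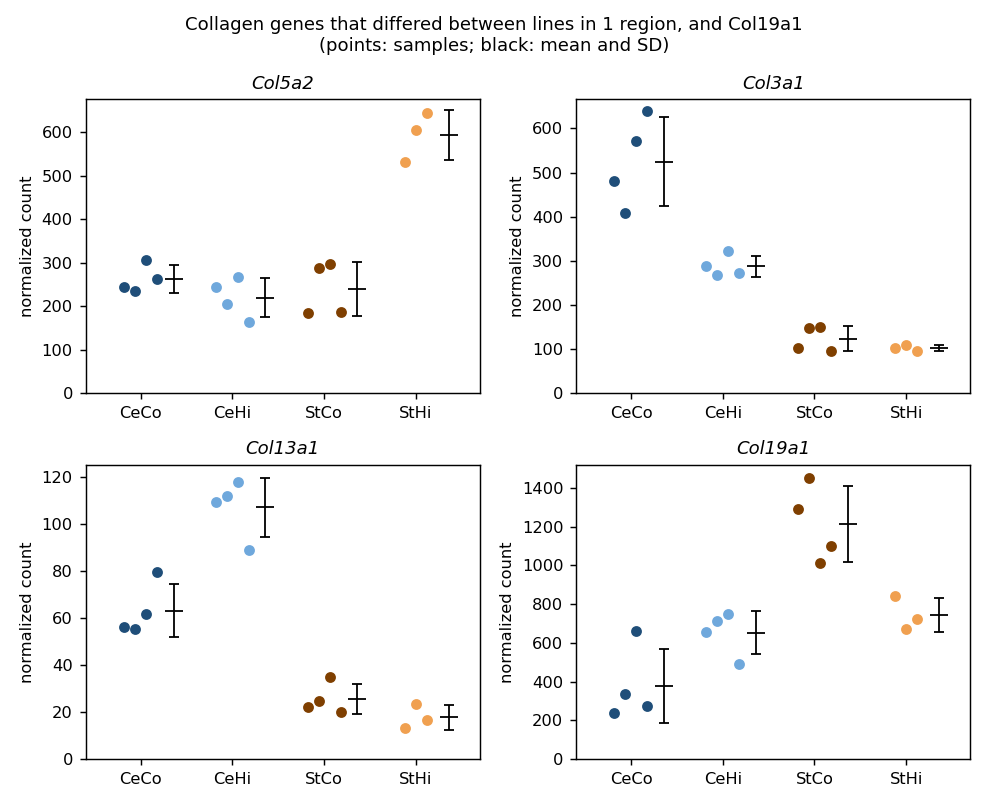
Normalized counts of Col5a2, Col3a1, Col13a1 and Col19a1 in each sample of the 4 groups (vertical axes from 0), with the group mean and SD in black. StHi stands above every other sample for Col5a2 (531 to 644), CeHi lies below CeCo for Col3a1 and above it for Col13a1, and for Col19a1 a single CeCo sample, at 660, lies among the CeHi samples.

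Col19a1, a fibril-associated gene made by some neurons, did not pass in either region, with line differences of opposite sign. It read 235, 337, 660 and 275 in CeCo, 658, 715, 747 and 492 in CeHi, 1292, 1454, 1011 and 1099 in StCo, and 842, 672 and 722 in StHi. The Ce value was 0.89 (SE 0.26, adjusted P = 0.064), the St value was -0.70 (SE 0.28, adjusted P = 0.26) and the interaction was -1.59 (SE 0.38, adjusted P = 0.099). StCo and StHi did not overlap, whereas in the Ce CeCo replicate 2 stood among the CeHi samples. Without that sample, the adjusted P-value was 0.00028 in the Ce, 0.03 in the St and 0.0012 for the interaction. In each of these comparisons this was the only 1 of 15 fits with a sample left out in which Col19a1 passed. With all samples kept, Col19a1 also passed in the Ce and in the interaction with sample quality weights, and in the St with each region fitted alone. The sample left out, CeCo replicate 2, is the control nearest to CeHi, and its Col19a1 value was not among those flagged further on. CeCo replicate 2 was also the highest of its group for 25 of the 43 genes, and held the highest choroid plexus and fibroblast marker sums of its group. The neighbour of Col19a1 on chromosome 1, Col9a1, with 9205 bases between them, differed by -0.31 in the Ce (SE 0.35, adjusted P = 0.68).

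Besides Col5a2, which was higher in Hi, 4 collagen genes did not overlap between lines in the St, and none of the 4 passed. Over all genes tested, 13.1% did not overlap, 7.20% as higher and 5.87% as lower in Hi. All were lower in Hi: Col19a1, Col22a1 (-0.66, SE 0.26, adjusted P = 0.23), Col17a1 (-0.75, SE 0.48, adjusted P = 0.55) and Col6a2 (-0.24, SE 0.18, adjusted P = 0.62). Col17a1 therefore had lower values in Hi in both regions without overlap, and its line effect averaged over regions was -1.01 (SE 0.32, adjusted P = 0.07).

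**Figure D5:**
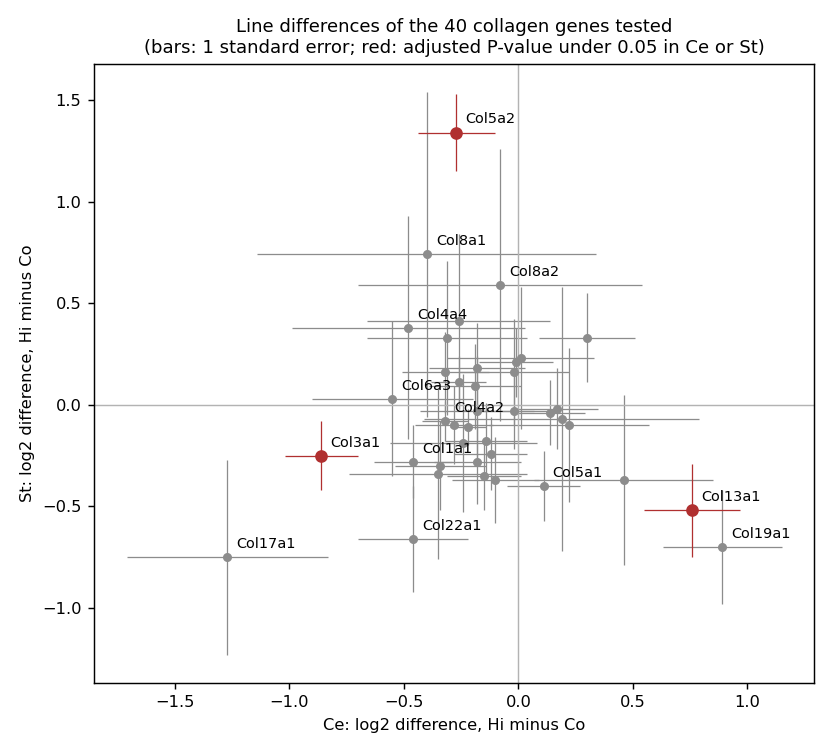
Line difference (log2, Hi minus Co) of the 40 collagen genes tested, in the Ce (horizontal) and in the St (vertical), with bars of 1 standard error. Only Col3a1, Col13a1 and Col5a2, in red, had an adjusted P-value under 0.05 in the Ce or the St.

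Genes that make, bind or break down collagen were counted as well. Among 33 genes of collagen synthesis, which hydroxylate, fold, trim or cross-link the chains, 30 were tested, and 7 were higher in the St (39.6% of all genes) and 16 in the Ce (40.6% of all genes). Between lines in the Ce, 3 of 30 passed, against 5.94% of all genes. Bmp1, which trims the ends of fibrillar procollagens, was lower in Hi by -0.41 (SE 0.08, adjusted P = 0.0061), and so was Adamts2, which trims the opposite ends, by -0.37 (SE 0.10, adjusted P = 0.039). Adamts2 read 340, 402, 398 and 406 in CeCo and 284, 297, 314 and 303 in CeHi, with no overlap. P4ha3, a prolyl hydroxylase subunit, was higher by 0.86 (SE 0.23, adjusted P = 0.036) at 7.46 to 14.2 in CeCo and 14.3 to 29.6 in CeHi. In the St, 1 of 30 passed, against 2.66% of all genes. This was Sparc, a collagen-binding protein of matrix, at 9549 to 15360 in StCo and 16637 to 18566 in StHi (0.50, SE 0.11, adjusted P = 0.025). None had an interaction that passed in limma, and 4 of 30 had an unadjusted P under 0.05, against 9.56% of all genes.

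Of 11 collagen receptors, 9 were tested. Itga10, the alpha 10 chain of a collagen-binding integrin, was higher in the samples labelled Hi in both regions and was the only 1 of the 9 to pass in either, against 5.94% of all genes in the Ce and 2.66% in the St. It read 325, 221, 263 and 265 in CeCo, 533, 481, 617 and 314 in CeHi, 110, 108, 108 and 88.7 in StCo, and 265, 206 and 170 in StHi. The St groups did not overlap, and 1 CeHi sample lay within the CeCo range. The differences were 0.82 in the Ce (SE 0.19, adjusted P = 0.014) and 1.01 in the St (SE 0.20, adjusted P = 0.0091).

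Of 15 genes for collagen breakdown and its inhibitors, 10 were tested and none passed between lines in limma, with 1 in each region at an unadjusted P under 0.05, against 19.7% of all genes in the Ce and 14.1% in the St. Between regions they held large differences, with the inhibitor Timp4 lower in the St by -2.87 (SE 0.07, adjusted P = 1.3e-15) and Timp2 higher by 2.58 (SE 0.11, adjusted P = 1.4e-11). All 8 small proteoglycans that coat fibrils were higher in the Ce, as were 40.6% of all genes, with a median of -1.53, among them Dcn (-2.36, SE 0.09, adjusted P = 3e-13) and Ogn (-2.70, SE 0.15, adjusted P = 4.9e-11). None passed between lines, with 1 in each region at an unadjusted P under 0.05, and Lum and Ogn of this list are also among the fibroblast markers.

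All 15 partners of type IV collagen in basement membranes were tested, and 4 were higher in the St (39.6% of all genes) and 7 in the Ce (40.6% of all genes). Of the 6 type IV genes that such partners accompany, none passed between lines in limma. At an unadjusted P under 0.05 there were 2 in the Ce and 0 in the St, against 19.7% and 14.1% of all genes.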

How the data were processed

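RNA of the whole Ce and St of individual mice was sequenced by the authors as paired-end reads of 100 bases, mapped to GRCm38 with TopHat2 and normalized for library size with Cuffnorm 2.2.1. The deposited signal is, per gene, the number of fragments over a library factor the authors applied, with no division by length: 99.6% to 99.8% of the low values of a sample (up to 20 steps) lay within 0.1 step of a whole multiple of the sample's step. Totals were 38499264 to 43669012 normalized counts. A further StHi sample, dropped by the authors as deviating in a principal component analysis, was not analysed here. Samples were grouped by their labels, on which the direction of every line difference rests.

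Genes were kept where 3 or more samples had a CPM of 1 or higher. Their values were scaled by the trimmed mean of M-values (M trimmed by 30%, A by 5%), transformed as log2(value + 1) and fitted as 4 group means in limma 3.58.1 (R 4.3.3), with trended and robust empirical Bayes moderation and Benjamini-Hochberg adjustment over 15213 genes. The threshold was an adjusted P-value under 0.05. The fit was checked on simulated data. Contrasts were St minus Ce, Hi minus Co in each region, their difference (the interaction) and their mean. Count models, planned for recovered fragments, were not run because a separate check of the fragment unit did not accept every sample.

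Values are given for each sample for genes that passed between lines, the largest region differences, the highest levels per kilobase, chains that assemble with or genes that neighbour these, and genes with 1 sample apart. From other lists, at most 4 genes are named. Members, classes and lists were chosen with earlier results of these data known. Positions and exon lengths come from GENCODE vM21. Alternatives covered the pseudocount, filter, scaling, sample quality weights, replicate number, each region alone and each sample left out, and, chosen after seeing the data, voom weights and 2 marker covariates. Per-sample values are deposited values without further scaling. Line comparisons of single basement membrane partners are not reported here.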

Additional observations from a re-analysis of the deposited data

Results flagged for a closer look

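In 129 sets of 4 samples (1 gene in 1 group), 3 had a sample whose gap to the others was too wide a share of the range by Dixon's criterion, which chance alone passes in about 1 of 20 sets. Col16a1 was at 646 in StCo replicate 2 and at 481 to 495 in the other StCo samples. Col25a1 was at 250 in CeHi replicate 3 and at 65.4 to 88.3 in the other CeHi samples, and without that sample it passed as lower in Hi in the Ce. Col4a6 was at 143 in CeCo replicate 2 and at 89.2 to 93.5 in the other CeCo samples. The line effect on Col5a2 differed between the regions by 1.61 on the log2 scale (SE 0.26, adjusted P = 0.0072 with limma), with StHi above StCo in every sample and overlapping groups in the Ce.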

How the results depend on the processing

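Col5a2 in the St and in the interaction, and Col3a1 in the Ce and averaged over regions, passed under all alternatives run for them, including each of the 15 samples left out. The 38 region calls became 37 to 39 with a sample left out: Col17a1 was lost without CeCo replicate 1 or 2, CeHi replicate 1 or 3 or StHi replicate 2 (adjusted P up to 0.068), and Col8a1 passed without CeCo replicate 1 (0.018) or CeHi replicate 0 (0.013). With the choroid plexus covariate, Col8a1 passed between regions as well (-1.23, adjusted P = 2.5e-06 with limma). That covariate was centred within each region, so that it does not hold the region difference of the markers. The 2 calls in the Ce became 1 with a pseudocount of 0.1, 1 without a filter, 1 with the choroid plexus covariate and 1 to 3 with a sample left out. They became 3 with each region fitted alone (with Col4a2) and 5 with sample quality weights (with Col4a2, Col17a1 and Col19a1). Col13a1 was lost without CeCo replicate 0, 1 or 2, CeHi replicate 0, 1 or 2, StCo replicate 0 or 1, or StHi replicate 2. Col25a1 passed without CeHi replicate 3, Col4a1 without CeHi replicate 1, Col9a2 without CeHi replicate 2, Col19a1 without CeCo replicate 2, and Col4a2 without StCo replicate 2 or 3 or StHi replicate 0 or 1. The 1 call in the St became 2 (with Col19a1) with each region fitted alone and 1 to 2 with a sample left out. The 1 interaction became 3 with sample weights (with Col13a1 and Col19a1) and 1 to 2 with a sample left out, and the 2 averaged line effects became 7 with sample weights and 2 to 5 with a sample left out. Of the other lists, counted as genes that passed in either line comparison or the interaction, the 4 synthesis genes became 2 with the choroid plexus covariate and 2 to 5 with a sample left out, the 1 basement membrane gene became 3 with sample weights and 1 to 2, the 0 breakdown genes 0 to 1 (1 without StCo replicate 0 or StHi replicate 2), and the receptors (1) and proteoglycans (0) did not move. The cause of these shifts was not tested. Among the 67 gene results checked, signs turned only in differences that did not pass and only when 1 sample was left out: Col23a1 between regions (-0.02 without CeHi replicate 1, -0.01 without StHi replicate 2), and between lines in the Ce Col8a1 (0.01 without CeCo replicate 2, 0.21 without CeHi replicate 0, in a range from -0.94), Col8a2 (0.12 and 0.24 without CeCo replicate 0 and 2, 0.15 and 0.20 without CeHi replicate 0 and 3, in a range from -0.54) and Col4a3 (0.10 without CeHi replicate 3, in a range from -0.48). Other scalings moved the median of all genes by at most 0.006 in size.

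Residuals of Ce and St samples with the same replicate number correlated by 0.171 to 0.278 in Co, where each Ce sample correlated best with its own number, and by -0.0751 to 0.0513 in Hi, so that the numbers behaved as pairs in Co but not in Hi. Numbers shared between lines correlated by -0.221 to 0.196. Because they did not hold as pairs in both lines, the fit without the block was kept. The authors had dropped a StHi sample, and whether the numbers of the other StHi samples shifted is not known. If Ce and St samples share mice, the averaged line effects take samples of the same mouse as independent. With the replicate block, counts were 38 between regions, 2 in the Ce (Col3a1 and Col4a2), 1 in the St, 1 interaction, 2 averaged, 3 synthesis, 1 receptor, 0 breakdown, 2 basement membrane and 0 proteoglycan genes, and with the replicate block within line 38 between regions and 2 interactions (Col5a1 and Col5a2). The tests of edgeR and DESeq2 on recovered fragments were planned and not run. The voom weights and both marker covariates were chosen after seeing the data. At this depth Col6a6, Col10a1 and Col28a1 fell under the filter and were not tested.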

Other observations

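Within each group, the sample numbered 2 in the labels was the highest for more collagen genes than any other sample: it led for 25 of 43 genes among CeCo samples and for 23 among CeHi samples. In the St it led for 27 among the controls and for 19 among the selected mice. This count was chosen after the values were seen. These samples also held the highest choroid plexus marker sum of CeCo (117727), StCo (2302) and StHi (18940), but not of CeHi, where replicate 1 was highest (114658). They held the highest fibroblast marker sum of CeCo (12013), CeHi (7796) and StHi (2002), but not of StCo, where replicate 1 was highest (2240). No test was made of these counts. Of the mural cell markers, 2 of 8 passed in the line effect averaged over regions, against 8.48% of all genes tested, both lower in Hi as labelled: Acta2 (-0.62, SE 0.13, adjusted P = 0.0052 with limma) and Myh11 (-0.55, SE 0.15, adjusted P = 0.027), the smooth muscle actin and myosin of vessel walls. The list did not move as one. Negative values were found for 6 of the 8, whereas Kcnj8 (0.40, SE 0.15, adjusted P = 0.11) and Abcc9 (0.03, SE 0.09, adjusted P = 0.86) were positive.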
